A study of Mus musculus with 6 samples.

Results

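The genes described here are 31 genes that mark macrophages and related myeloid cells, followed in mouse subcutaneous fat with and without a mitoNEET transgene. They were taken by gene symbol from the probe annotation of the array, and each gene is represented by its probe with the highest mean over the 6 arrays. Of the 31 genes, 30 had a probe among the 19057 genes named on the array, and 27 read above background and were tested among 14962 features. Cd68 had no probe under that symbol in the annotation used. Itgam, Itgax and Fcer1g had probes that stayed near background.

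Macrophages of adipose tissue derive from embryonic precursors and from blood monocytes, and depend on signalling through the receptor encoded by Csf1r and on the transcription factor PU.1, encoded by Spi1. Resident cells lie along vessels and carry scavenger receptors such as CD206 and CD163. Cells that gather around dying adipocytes take up lipid and are known as lipid-associated macrophages, with TREM2 as their characteristic receptor. Macrophages also engulf particles bound by antibody through Fc receptors, digest them with lysozyme and cathepsins, and load peptides onto MHC class II molecules.

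The tissue came from male FVB mice aged 12 weeks, with 3 arrays from wild type mice and 3 from mice carrying the mitoNEET transgene; no treatment differed between the groups. MitoNEET is a protein of the outer mitochondrial membrane encoded by Cisd1. The sample descriptions of all 6 arrays, wild type included, carry the prefix aP2. This is an older name of Fabp4, whose promoter is widely used to drive transgenes in adipocytes and is also known to be active in macrophages; the labels do not state what drives this transgene. Whether the 3 arrays of a group are 3 animals is not in the labels, so a p-value here speaks only of the spread among these samples, and precision is limited by their number. RNA was taken from whole tissue, so fewer cells of a type and less RNA per cell cannot be told apart.

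Values are quantile-normalized probe intensities, which share 1 distribution across arrays and keep a background of about 47.8; a probe was tested when it exceeded 55.6 on at least 3 arrays. Differences are log2 transgenic minus wild type, from limma's moderated test over all features with Benjamini-Hochberg adjustment, and a gene is called when its adjusted p is under 0.05. The Cisd1 probe read 915 ± 132 (SD, n = 3) in wild type and 1086 ± 23.4 (SD, n = 3) in transgenic tissue, without overlap and without a call (log2 0.26, adjusted p = 0.163). Wild type array 2 stood apart in skeletal muscle genes, whose summed intensity was 11456 there and 396 on wild type array 3, and at most 966 on the transgenic arrays. Transgenic array 1 had the lowest level of lymphocyte genes. Values without both arrays are given for the called macrophage genes and for the further lists that held a called gene. They are not given for every gene named from those lists. Without transgenic array 2 no feature in the table was called (3627 had an unadjusted p under 0.05 in limma), so no call below held without it.

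Macrophage genes went both ways. Gpnmb and Fcgr3 rose, and Aif1, Timd4 and Lyz1 fell. Thus 2 of 27 tested genes were called higher, or 7.41%, against 5.11% of all features, and 3 were called lower, or 11.1%, against 8.26% of all features. Over both directions the share was 18.5% against 13.4%, so the number of calls was near that of the whole array. The log2 differences ran from −0.87 to 0.57 with a median of 0.10, against a median of 0.03 over all features. They were positive in 16 of the 27 genes and in 8230 of 14962 features. These shares over all features also apply beside the counts for each role and list below. In 11 genes (40.7%) the groups did not overlap, against 35.9% of features: 5 genes lay above wild type on all transgenic arrays (18.5% of features did) and 6 lay below (17.4%). None of the 5 called genes remained called when wild type array 2 and transgenic array 1 were both left out, where 317 features were called in all.

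**Figure D1:**
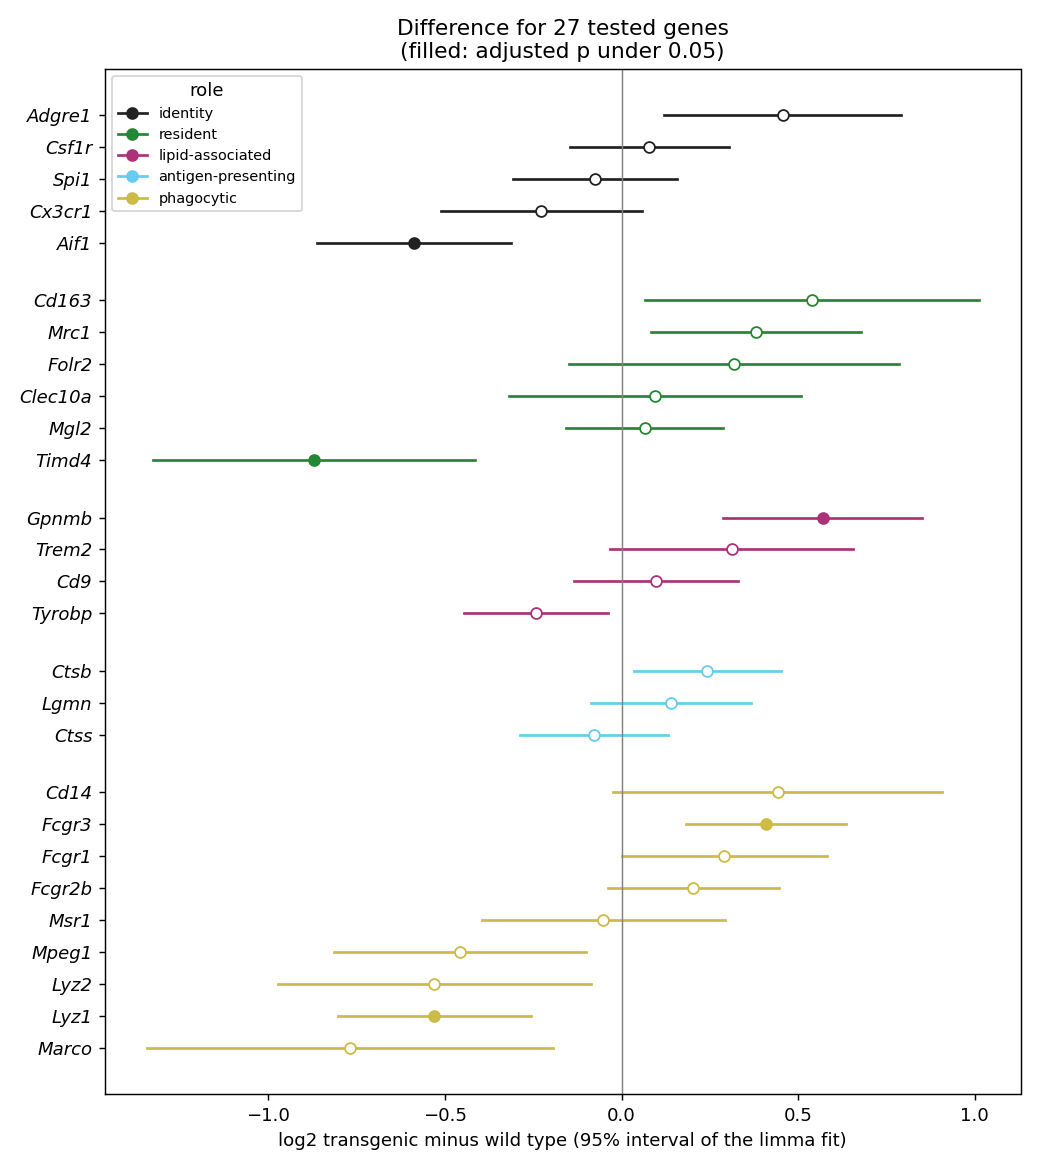
Log2 transgenic minus wild type for the 27 tested genes, grouped by role, with the 95% interval of the limma fit; filled circles have an adjusted p under 0.05. Gpnmb and Fcgr3 lie to the right and Aif1, Timd4 and Lyz1 to the left as filled circles, and each role except the antigen-presenting genes holds a called gene.

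Among the 7 genes of macrophage identity, 5 were tested and 1 fell. Aif1, which encodes the cytoplasmic calcium-binding protein IBA1 used to stain macrophages, read 354, 404 and 369 on wild type arrays 1, 2 and 3 and 210, 277 and 267 on transgenic arrays 1, 2 and 3. All 3 transgenic arrays lay below all wild type arrays, with transgenic array 1 lowest and wild type array 2 highest. The mean went from 376 ± 25.6 to 251 ± 36.3 (SD, n = 3), a fall of 0.59 on the log2 scale (SE 0.12, adjusted p = 0.0217). A second Aif1 probe read between 215 and 273 in wild type and between 164 and 172 in transgenic tissue, with a log2 difference of −0.52.

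Adgre1, which encodes the F4/80 antigen of mouse macrophages, differed in the opposite direction without being called. Its probe read 160, 111 and 146 in wild type and 186, 213 and 169 in transgenic tissue, so the groups did not overlap. The log2 difference was 0.46 (SE 0.15, adjusted p = 0.0746), and 3 probes of Adgre1 all had positive differences, from 0.28 to 0.46. Wild type array 2 was the lowest, and without it the difference was 0.30 (adjusted p = 0.214).

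Csf1r, the receptor for the growth factors CSF1 and IL-34, read 313, 252 and 267 in wild type and 290, 291 and 294 in transgenic tissue. These values overlapped, with a log2 difference of 0.08 (95% interval −0.15 to 0.30). Spi1 read between 83.9 and 90.7 in wild type and between 74.2 and 93.2 in transgenic tissue, also with overlap (log2 −0.08, 95% interval −0.31 to 0.16). Cx3cr1, the fractalkine receptor of monocytes and some resident macrophages, had a log2 difference of −0.23 (adjusted p = 0.251) and was lowest on transgenic array 1, at 73.1. Itgam, the integrin chain CD11b, stayed between 50.3 and 57.3 on the 6 arrays, and such a reading cannot separate weak expression from a probe that reads poorly.

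Of 6 resident macrophage genes, 5 had positive differences that were not called and 1, Timd4, fell. Timd4 encodes TIM-4, a phosphatidylserine receptor of long-lived resident macrophages in several organs, lymph nodes among them. It read 194, 289 and 189 in wild type and 109, 103 and 155 in transgenic tissue. The groups did not overlap, and wild type array 2 was well above the other two. The mean went from 224 ± 56.3 to 122 ± 28.3 (SD, n = 3), a fall of 1.83-fold (log2 −0.87, SE 0.20, adjusted p = 0.0285). Without wild type array 2 the difference was −0.67 (adjusted p = 0.0807).

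Mrc1, which encodes the mannose receptor CD206, read 1021, 826 and 773 in wild type and 1255, 997 and 1148 in transgenic tissue. Only wild type array 1 exceeded a transgenic array, and the log2 difference of 0.38 was not called (SE 0.13, adjusted p = 0.0868). Cd163, the haemoglobin scavenger receptor gene, read 240, 201 and 211 against 457, 269 and 253. Its groups did not overlap, but 1 transgenic array carried much of the difference, which was 0.54 over all arrays (adjusted p = 0.118), 0.27 without transgenic array 1 and 0.21 without that array and wild type array 2. Folr2, the folate receptor beta gene of perivascular macrophages, had a log2 difference of 0.32 (adjusted p = 0.329), with overlap. The C-type lectin genes Clec10a and Mgl2, which encode galactose-binding receptors of macrophages and dendritic cells, had log2 differences of 0.10 and 0.07, with 95% intervals from −0.32 to 0.51 and from −0.16 to 0.29.

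A further list of 16 genes of resident macrophages was read from the same fit. Of 14 tested, 1 rose, none fell and 12 had positive differences, with a median of 0.22. Over all features 5.11% were called higher, and 8230 of 14962 had positive differences. Igf1, a growth factor gene that adipocytes and stromal cells also express, rose by 0.54 on the log2 scale (adjusted p = 0.0417), a call that held without wild type array 3 and was lost without any other array, with differences of 0.42 to 0.56 in those fits. Stab1, the scavenger receptor stabilin-1, read 331, 296 and 406 in wild type and 478, 458 and 437 in transgenic tissue (log2 0.42, adjusted p = 0.053). C1qb, a chain of complement C1q made by macrophages, had a log2 difference of 0.37 (adjusted p = 0.0708), and in both of these genes the groups did not overlap. The list's median was 0.04 without wild type array 2 and transgenic array 1.

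**Figure D2:**
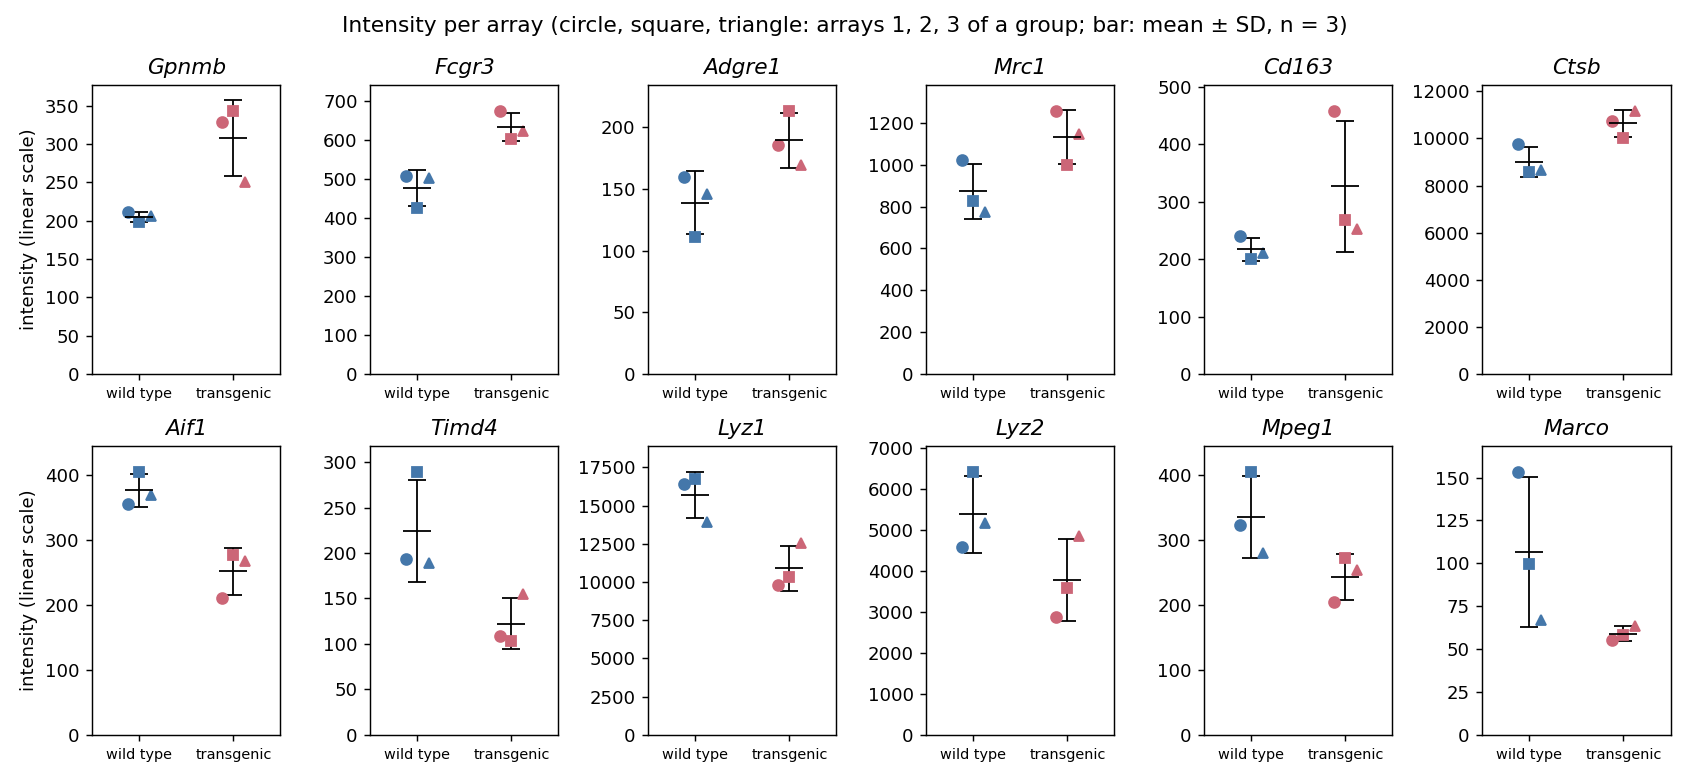
Intensity on each array (linear scale from 0) of 12 macrophage genes, with circle, square and triangle for arrays 1, 2 and 3 of a group and bars for mean ± SD (n = 3). The upper row holds genes with higher means in transgenic tissue and the lower row genes with lower means; Mrc1 and Lyz2 overlap between the groups and the other 10 genes do not. These 12 genes were picked for display and do not stand for all members. Among the 27 tested genes the groups did not overlap in 40.7%, against 35.9% of all features.

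One of 4 lipid-associated genes rose. Gpnmb, a membrane glycoprotein gene that lysosomal stress induces in lipid-loaded macrophages, read 212, 199 and 206 in wild type and 329, 343 and 251 in transgenic tissue. The wild type arrays were close together and all transgenic arrays were above them, transgenic array 3 least so. The mean went from 205 ± 6.63 to 307 ± 49.5 (SD, n = 3), a rise of 1.48-fold (log2 0.57, SE 0.12, adjusted p = 0.0245). The difference was 0.49 without wild type array 2 and transgenic array 1, where it was not called (adjusted p = 0.187). The other 3 Gpnmb probes stayed near background and give no second reading.

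Trem2, the lipid-sensing receptor gene of this state, read 75.7, 74.9 and 59.6 in wild type and 94.2, 98.3 and 69.8 in transgenic tissue. These values are close to background and overlapped, and the log2 difference of 0.31 was not called (95% interval −0.03 to 0.66). Tyrobp, which encodes the signalling adaptor of TREM2 and of other myeloid and NK cell receptors, lay the other way, at 278, 241 and 263 against 231, 213 and 216. Its groups did not overlap, with a log2 difference of −0.24 (SE 0.09, adjusted p = 0.105). Cd9, a tetraspanin gene of lipid-associated macrophages that many other cells express, had a difference of 0.10 (adjusted p = 0.558).

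Among 17 further genes of the lipid-associated state, 13 were tested, of which 2 rose and 1 fell, with a median log2 difference of 0.16 (0.087 without wild type array 2 and transgenic array 1). Apoe, the apolipoprotein E gene, rose from 4849 ± 1070 to 7673 ± 542 (SD, n = 3; 1.60-fold, log2 0.68, adjusted p = 0.0241). Fabp5, a fatty acid binding protein gene, rose by 0.57 on the log2 scale (adjusted p = 0.0343). Nceh1, a cholesteryl ester hydrolase gene of macrophages, fell by 0.78 (adjusted p = 0.0168). None of these 3 was called without wild type array 2 and transgenic array 1, where their differences were 0.66, 0.33 and −0.60. Apoe and Fabp5 are also expressed by adipocytes, whose own genes were tested beside them: of 11 tested adipocyte genes 5 rose and none fell, and their summed intensity was 68705 to 75042 in wild type and 82938 to 86851 in transgenic tissue. Lpl and Pnpla2, named after their values were seen, were the brightest genes in these sums and were not called. Pnpla2 read 25166 on wild type array 1 and on every transgenic array. With wild type array 2 and transgenic array 1 left out, none of the adipocyte genes was called by limma, and their median difference was 0.20 against 0.28 over all arrays. Whether adipocytes took part in the Apoe and Fabp5 differences was not tested.

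None of the 3 tested antigen-processing genes was called by limma, and 1 of them, Ctsb, had an unadjusted p under 0.05. Ctsb, the cathepsin B gene, which most cells express, read 9755, 8567 and 8681 in wild type and 10746, 10025 and 11156 in transgenic tissue. The groups did not overlap, and the log2 difference was 0.24 (SE 0.09, adjusted p = 0.11). Ctss, which encodes the cathepsin that trims the invariant chain of MHC class II, was dim and overlapped, between 66.5 and 78.9 on the 6 arrays, with a log2 difference of −0.08 (95% interval −0.29 to 0.13). Lgmn, which encodes the lysosomal protease legumain, had a difference of 0.14 (adjusted p = 0.38). Itgax, the CD11c integrin gene of dendritic cells and some macrophages, stayed between 44.2 and 51.4 and was not tested.

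Of 13 genes of MHC class II presentation and costimulation, which macrophages, dendritic cells and B cells express, all tested, 7 fell, none rose and all 13 differences were negative, with a median log2 difference of −0.75. Ciita, the transactivator of class II genes, read 261, 376 and 282 in wild type and 111, 161 and 138 in transgenic tissue (2.24-fold lower, log2 −1.16, adjusted p = 0.0145). Cd86, a costimulatory ligand gene of macrophages, dendritic cells and B cells, fell from 519 ± 91.4 to 262 ± 38.5 (SD, n = 3; log2 −0.98, adjusted p = 0.0145). Cd40, the gene of a costimulatory receptor of B cells and other antigen-presenting cells, fell by 1.60 on the log2 scale (adjusted p = 0.0155) with its brightest probe and by 0.94 with the mean of its probes. The antigen-binding chain genes H2-Aa, H2-Ab1 and H2-Eb1, named after their values were seen, were not called, with differences of −0.27, −0.59 and −0.41 (adjusted p = 0.0637, 0.165 and 0.0782). The H2-Aa probe was close to background, at 57.1 to 62.8 in wild type and 48.8 to 51.6 in transgenic tissue, which limits the size of its difference. Without wild type array 2 and transgenic array 1 the list's median was −0.43, with 4 genes called lower.

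In the phagocytic set 1 of 9 tested genes rose, the Fc receptor gene Fcgr3, and 1 fell, the lysozyme gene Lyz1. Fcgr3, an activating receptor for immunoglobulin G on macrophages, NK cells and neutrophils, read 506, 424 and 501 in wild type and 673, 602 and 623 in transgenic tissue. The groups did not overlap, with means of 477 ± 45.7 and 633 ± 36.3 (SD, n = 3), a rise of 1.33-fold (log2 0.41, SE 0.10, adjusted p = 0.0339). The call was lost when a background level was subtracted (adjusted p = 0.0603), and without wild type array 2 and transgenic array 1 the difference was 0.28 (adjusted p = 0.261). The high-affinity receptor gene Fcgr1 was near background and overlapped, between 48.4 and 74.3, with a difference of 0.29 (adjusted p = 0.157). Fcgr2b, the inhibitory receptor gene that B cells also express, had a difference of 0.20 (adjusted p = 0.231), and its dimmest tested probe had one of −0.18. Fcer1g, the gene of the signalling chain shared by Fcgr1 and Fcgr3, stayed between 41.0 and 48.9 and was not tested.

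Lyz1 and Lyz2, the neighbouring lysozyme genes of mouse, had nearly the same difference. Lyz1, known as the form of Paneth cells in the gut, read 16394, 16723 and 13957 in wild type and 9793, 10330 and 12538 in transgenic tissue. On this brightest Lyz1 probe the groups did not overlap, and the mean fell from 15691 ± 1511 to 10887 ± 1455 (SD, n = 3), or 1.44-fold (log2 −0.53, SE 0.12, adjusted p = 0.0275). After subtraction of a background level it was not called (adjusted p = 0.0511). Lyz2, the form of macrophages and neutrophils, read 4580, 6412 and 5157 against 2881, 3594 and 4858. Transgenic array 3 lay above wild type array 1, and the difference of −0.53 was not called (SE 0.19, adjusted p = 0.103). All 5 tested lysozyme probes had negative differences, from −0.64 to −0.53. The dimmer tested Lyz1 probes overlapped between the groups. Neither was called when limma tested all kept probes separately (adjusted p = 0.105 and 0.115).

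A probe may read the transcripts of both lysozyme genes, which was not examined and which sequences before the start sites cannot show. The upstream sequences of the lysozyme genes are shown because the genes are close duplicates. Each is the 250 bases before a RefSeq start site in GRCm38.p6, both on the minus strand of chromosome 10, at chr10:117292869-117293118 for Lyz1 and chr10:117282273-117282522 for Lyz2. In a global alignment 200 bases were identical, or 79.4% of the alignment. Capitals mark the longest run that both share, 50 bases that end at the start site.
Lyz1: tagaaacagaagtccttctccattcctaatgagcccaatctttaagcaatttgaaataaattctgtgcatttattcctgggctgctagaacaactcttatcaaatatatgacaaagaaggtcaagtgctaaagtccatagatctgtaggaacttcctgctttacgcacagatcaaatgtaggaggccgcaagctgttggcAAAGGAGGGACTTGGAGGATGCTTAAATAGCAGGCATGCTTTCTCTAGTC
Lyz2: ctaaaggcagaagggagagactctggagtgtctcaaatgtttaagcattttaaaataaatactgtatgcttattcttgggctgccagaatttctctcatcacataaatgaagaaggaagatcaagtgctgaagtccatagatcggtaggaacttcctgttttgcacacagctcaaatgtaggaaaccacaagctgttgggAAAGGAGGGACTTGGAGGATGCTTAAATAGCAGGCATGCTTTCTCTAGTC

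Windows of Fcgr3, which rose, and Aif1, which fell, are shown because both hold the core of the PU.1 binding motif close to an annotated start site. They were picked after the matches were seen, and whether these start sites are used in fat was not tested. The motif searched was GAGGAA on either strand, whose reverse complement is TTCCTC. It was present in 11 of 26 windows of 23 macrophage genes found in the promoter table (42.3%) and in 23.3% of all 32851 windows of the same 250 bases. Both windows are from GRCm38.p6 and the minus strand, at chr1:171059395-171059644 for Fcgr3 and chr17:35176053-35176302 for Aif1. Capitals mark the match, which ends 9 bases before the window's start site in Fcgr3 and 1 base before it in Aif1. Both start sites lie within the annotated locus, 6521 bases from its upstream end in Fcgr3 and 31 in Aif1, so each belongs to an internal start. The start site of the other Fcgr3 window is 6512 bases from that end. That window overlaps the one shown and holds the same copy of the motif, which was thus counted in both windows. Counted by gene, 10 of the 23 held the motif. Thus the letters occur beside a gene of either direction, and a match is a description of the sequence and not a binding site.
Fcgr3: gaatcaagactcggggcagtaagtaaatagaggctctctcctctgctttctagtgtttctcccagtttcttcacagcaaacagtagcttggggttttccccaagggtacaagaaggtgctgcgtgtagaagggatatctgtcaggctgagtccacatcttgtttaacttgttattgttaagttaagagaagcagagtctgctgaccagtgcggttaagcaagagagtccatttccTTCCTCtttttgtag
Aif1: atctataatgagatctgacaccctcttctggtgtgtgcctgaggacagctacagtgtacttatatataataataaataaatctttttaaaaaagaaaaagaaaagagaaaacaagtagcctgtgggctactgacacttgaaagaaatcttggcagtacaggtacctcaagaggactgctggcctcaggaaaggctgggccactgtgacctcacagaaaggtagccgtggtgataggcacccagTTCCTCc

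Other phagocytic genes were not called. Mpeg1, the gene of the pore-forming protein perforin-2 of phagosomes, read 322, 404 and 279 in wild type and 204, 272 and 253 in transgenic tissue, without overlap (log2 −0.46, SE 0.16, adjusted p = 0.0863). Marco, a scavenger receptor gene of macrophages in lymphoid organs and lung, read 153, 99.5 and 66.8 against 55.4, 58.2 and 63.7. The transgenic arrays were near background and wild type array 1 was well above the rest, with a log2 difference of −0.77 (SE 0.25, adjusted p = 0.0764) that was −0.47 without that array. When a background level was subtracted, the Marco difference was −1.28 (adjusted p = 0.0778).

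Cd14, the lipopolysaccharide co-receptor gene, read 495, 316 and 413 in wild type and 453, 497 and 718 in transgenic tissue. Its values overlapped, with a log2 difference of 0.44 (SE 0.20, adjusted p = 0.178). Msr1, the class A scavenger receptor gene, had a difference of −0.05 (95% interval −0.40 to 0.29).

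Of 20 further phagocytic and innate genes, 15 were tested, of which 3 fell and none rose, with a median of −0.21. Ncf4 and Cyba, subunit genes of the phagocyte NADPH oxidase, fell by 0.87 and 0.88 on the log2 scale (adjusted p = 0.0145 and 0.0164). Laptm5, a lysosomal membrane protein gene of all leukocytes, fell from 8190.1 ± 1685 to 3847 ± 760.5 (SD, n = 3; log2 −1.09, adjusted p = 0.0158). Without wild type array 2 and transgenic array 1 the median of this list was −0.16, and Ncf4 and Laptm5 but not Cyba (adjusted p = 0.0592) were called lower.

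The members differed in which arrays were high. Wild type array 1 was the highest wild type array in 18 of 27 genes, wild type array 2 in 9 and wild type array 3 in none. Among the resident genes, Mrc1, Cd163, Folr2 and Clec10a were highest on array 1 within each group. Aif1, Timd4, Lyz1, Lyz2 and Mpeg1 were highest on wild type array 2 among wild type arrays, and of these Timd4 alone was not lowest on transgenic array 1 among transgenic arrays.

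**Figure D3:**
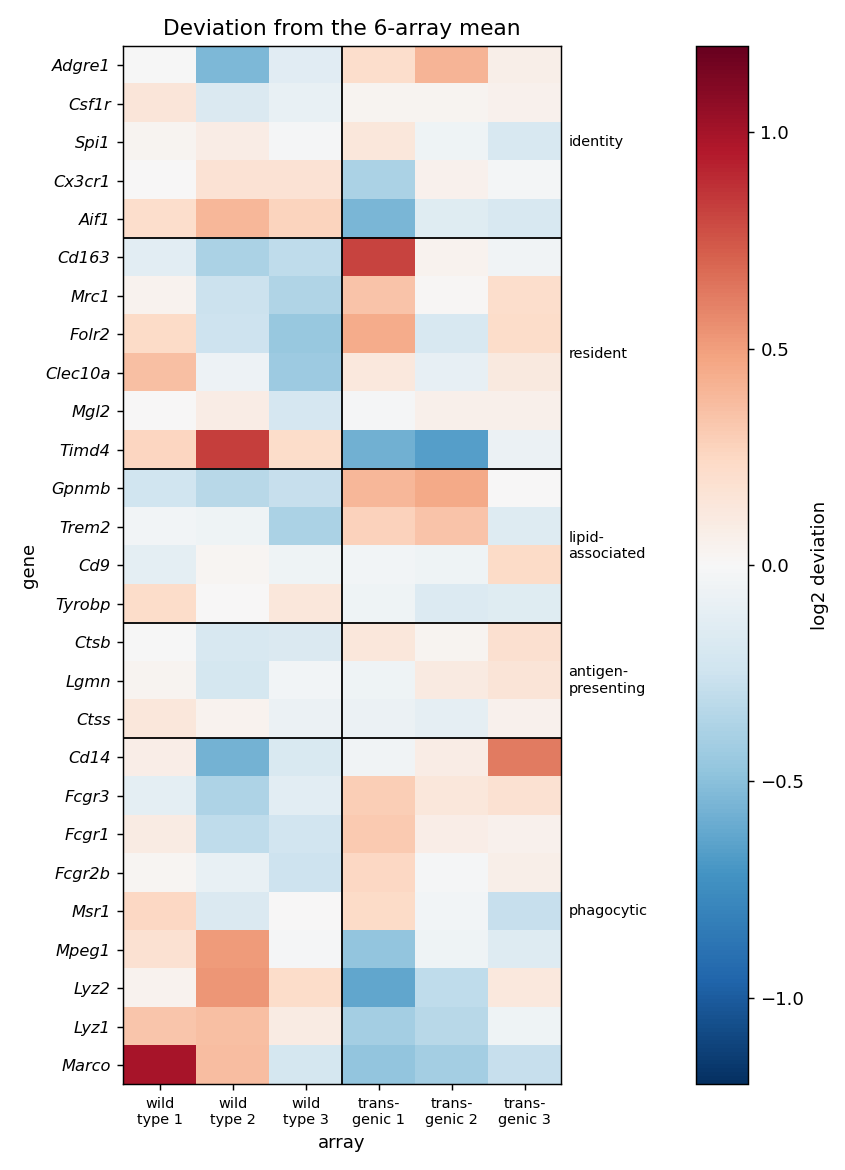
Log2 deviation of each tested gene from its 6-array mean, with arrays in columns and genes in rows by role. Red is above the mean and blue below it; Marco on wild type array 1, Timd4 on wild type array 2 and Cd163 on transgenic array 1 are the darkest red cells.

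Lymphocyte genes were also highest on wild type array 2 and lowest on transgenic array 1. The mean deviation of 10 tested T and NK cell genes was 0.95 on wild type array 2, 0.47 and 0.59 on wild type arrays 1 and 3, −1.40 on transgenic array 1, and −0.43 and −0.18 on transgenic arrays 2 and 3. Of 16 listed T and NK cell genes, 8 of 10 tested fell, and their summed intensity was 7687 to 11502 in wild type and 2878 to 4868 in transgenic tissue. All 7 tested of 12 B and plasma cell genes fell (sums of 2337 to 3886 and 528 to 1063). Of 8 tested lymph node stroma genes, of 9 listed, 5 fell (sums of 15005 to 23779 and 5884 to 9264). Each sum is weighted to the brightest genes of its list, named here after their values were seen. On transgenic array 1, Mfge8 read 4522 of the stroma sum of 5884. On the same array Cd8b1, which was not called, read 1851 of the T and NK cell sum of 2878. The genes called lower without wild type array 2 and transgenic array 1 were 5 T and NK cell, 6 B and plasma cell and 3 stroma genes. The lists' medians were then −1.06, −1.21 and −0.89, against −1.72, −1.67 and −1.54 over all arrays. Intensities keep a background level, so no marker reads 0. The part of lymphoid tissue in the differences of Aif1, Timd4, Lyz1, Lyz2, Mpeg1 and the class II genes was not tested. With both wild type array 2 and transgenic array 1 left out, the differences were −0.41 for Aif1, −0.60 for Timd4, −0.41 for Lyz1, −0.22 for Lyz2 and −0.19 for Mpeg1.

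Genes of leukocytes in general also lay lower. Of 10 pan-leukocyte genes 9 fell, with a median log2 difference of −1.45. Was, a regulator of actin in blood cells, fell from 704 ± 158 to 251 ± 34.4 (SD, n = 3; log2 −1.48, adjusted p = 0.0145). Of 9 tested dendritic cell genes 3 fell and none rose, with a median of −0.48. Irf8, a transcription factor gene of dendritic cells and monocytes that B cells also express, and Fscn1, an actin-bundling protein gene of mature dendritic cells, fell by 0.94 and 1.19 (adjusted p = 0.0145 for each). Of 6 tested monocyte genes 2 fell, with a median of −0.22. When wild type array 2 and transgenic array 1 were left out, limma called 6 pan-leukocyte genes (median −1.01), 2 dendritic cell genes (median −0.32) and no monocyte gene (median −0.22), all of those called being lower. Among 7 neutrophil and 6 mast cell and eosinophil genes tested, none was called by limma, and 3 and 1 of them had an unadjusted p under 0.05.

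**Figure D4:**
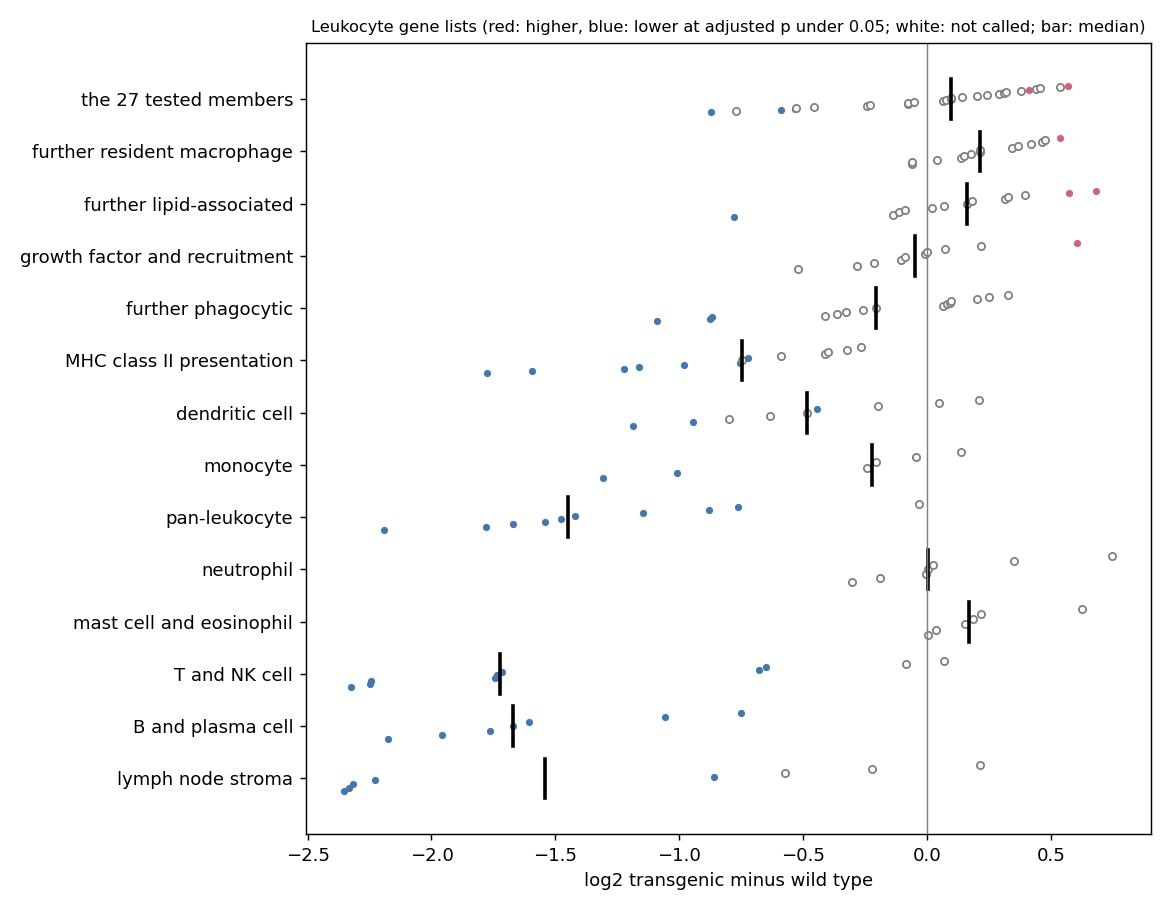
Log2 transgenic minus wild type of every tested gene in 14 gene sets, red where higher and blue where lower at an adjusted p under 0.05, with the median as a bar. The medians of the macrophage members (0.10) and of further resident genes (0.22) lie near 0, and those of the pan-leukocyte (−1.45), T and NK cell (−1.72) and B and plasma cell (−1.67) genes lie far to the left.

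Genes for macrophage growth factors and recruitment were mostly without a call. Il34, which encodes a tissue ligand of the Csf1r receptor, rose from 126 ± 4.4 to 192 ± 21.7 (SD, n = 3; 1.52-fold, log2 0.61, SE 0.10, adjusted p = 0.0157). It read 130, 121 and 125 in wild type and 210, 198 and 168 in transgenic tissue, with no overlap. Csf1, the other ligand gene, read 106, 113 and 93.9 against 128, 117 and 119, also with no overlap (log2 0.22, adjusted p = 0.164). Csf2rb, the gene of a receptor chain shared by GM-CSF and related cytokines, lay the other way without overlap, at 82.8, 81.3 and 80.1 against 66.3, 76.1 and 68.8 (log2 −0.21, adjusted p = 0.134). Of 10 tested genes of this list 1 rose and none fell, and 7 differences were negative, with a median of −0.05 (−0.12 without wild type array 2 and transgenic array 1). Without wild type array 2 and transgenic array 1, Il34 had a difference of 0.51 (adjusted p = 0.0974), and without wild type array 2 alone one of 0.58 (0.053).

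The 5 calls among macrophage genes were lost in some of the fits with fewer arrays. In 6 fits that each left out 1 array, Gpnmb, Aif1 and Timd4 were called in 3, and Fcgr3 and Lyz1 in 2. All 5 lost their calls without wild type array 2, without transgenic array 1 and without transgenic array 2, and the last of these exclusions left no feature called at all. Fcgr3 also lost its call without transgenic array 3 (adjusted p = 0.0715) and Lyz1 without wild type array 1 (0.0548). The differences kept their direction in these fits, at 0.48 to 0.71 for Gpnmb, 0.33 to 0.45 for Fcgr3, −0.66 to −0.46 for Aif1, −1.05 to −0.67 for Timd4 and −0.64 to −0.46 for Lyz1. Without transgenic array 2 those of Aif1 (−0.66) and Fcgr3 (0.44) were larger than over all arrays. Those of Gpnmb (0.48), Timd4 (−0.76) and Lyz1 (−0.50) were smaller. A fit with fewer arrays is also less precise, so a lost call does not show that a difference rested on the array left out. Without wild type array 1, Adgre1, Mrc1 and Fcgr1 were also called higher, and without wild type array 3, Marco and Mpeg1 were also called lower, as was Lyz2 without transgenic array 3.

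**Figure D5:**
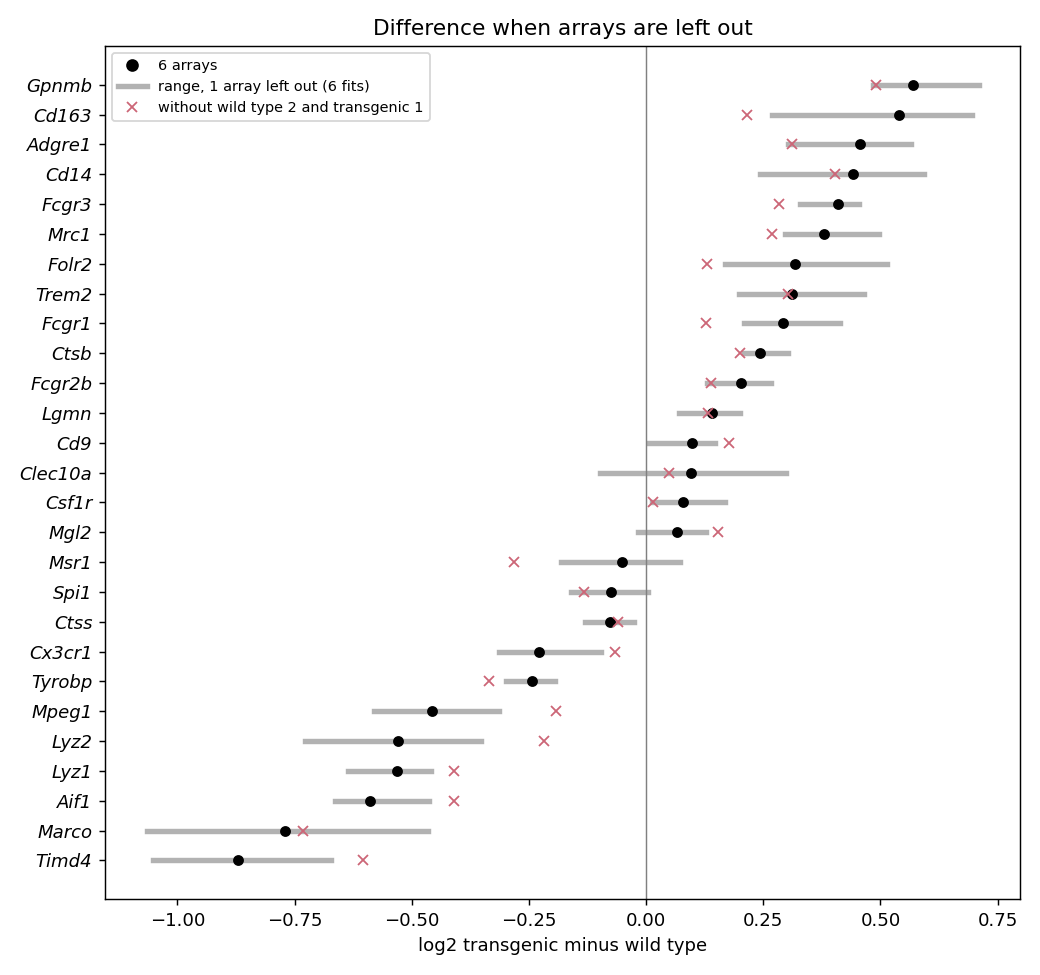
Log2 transgenic minus wild type of the 27 tested genes with all 6 arrays (black), the range over 6 fits with 1 array left out (grey) and the value without wild type array 2 and transgenic array 1 (cross). The range crosses 0 for Clec10a, Mgl2, Msr1 and Spi1 and for none of the 5 called genes.

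Several probes were available for some genes. Of 53 probes annotated to the members 40 were kept, and 10 genes had more than 1 kept probe. In 9 of these 10 all kept probes had the same direction, and the exception was Fcgr2b. Csf1r had a brighter probe with a difference of 0.08 and a dimmer one with 0.23, and Mgl2 had 0.07 and 0.20. With the mean of a gene's kept probes, Lyz1 was not called (log2 −0.57, adjusted p = 0.078).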

How the data were processed

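The authors' deposited table holds linear probe intensities. Its sorted columns match within 0.157, as quantile normalization leaves them. Its lowest value is 32.4, which does not settle whether any background correction was made. No source used here names the software. Per the labels' protocols, RNA of frozen tissue was labelled as biotinylated cRNA. A scanner table whose 24 per-array columns match no sample label was not used.

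On the log2 scale, the background was the mode of all values (density over 4096 points) and the threshold that mode plus 1.645 times the spread below it; 22037 of 45281 probes exceeded it on at least 3 arrays. Names come from the platform annotation, which can be old. A gene's brightest probe stood for it, giving 14962 features, 11469 of them named genes, fitted by group alone (limma 3.58.1, R 4.3.3) and tested on simulated data. Promoter windows are from RefSeq, aligned with Biopython 1.88.

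Members and lists were chosen with earlier results of these data known. All 31 members are named, and up to 4 genes of smallest p, taken in order, from each other list. The 3 class II chain genes, Mfge8, Cd8b1, Lpl and Pnpla2 were added after their values were seen. Alternatives covered an offset, background subtraction, filter, probe choice, the test, array weights, centring, a replicate block, the threshold and arrays left out.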

Additional observations from a re-analysis of the deposited data

How the results depend on the processing

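Over all 6 arrays 2001 features passed, with 2 members higher and 3 lower. With 1 array left out the counts ran from 0 to 2148 features, from 0 to 5 members higher and from 0 to 5 lower. The count of features was 0 without transgenic array 2, 319 when wild type array 2 was left out, 519 without transgenic array 1 and 1212 without transgenic array 3. Leaving out wild type array 2 and transgenic array 1 together gave 317 features and 0 members in either direction. At an adjusted p under 0.01 there were 0 features and 0 members, and under 0.1 there were 3450 features, 4 members higher and 5 lower. Background subtraction left 1 member higher, as Fcgr3 (adjusted p = 0.0603) and Lyz1 (0.0511) lost their calls. Array weights gave 5 members lower. Centring each array gave 1117 features higher and 1086 lower, so 50.7% of calls were rises against 38.2% without it, and kept 2 members higher and 3 lower; it moved the median over all features from 0.03 to 0.06. The cause of these changes was not tested.

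Groups share replicate numbers 1 to 3. Deviations of same-numbered arrays correlated at 0.41, 0.22 and −0.03 across features, and those of differently numbered arrays at −0.35 to 0.23. These values do not settle whether the numbers are pairs, and the main fit did not use them as pairs. With the replicate number as a block 2391 features, 4 members higher (Mrc1 and Cd163 added) and 5 lower (Lyz2 and Mpeg1 added) were called. The median over tested members was 0.10 and ran from 0.05 to 0.17 with 1 array left out. Direction changed in genes near 0, whose differences ran over these fits from −0.16 to 0.0038 for Spi1 and from −0.18 to 0.072 for Msr1 (positive without transgenic array 3, and for Msr1 at 0.06 without wild type array 1), and from −0.10 to 0.30 for Clec10a and from −0.017 to 0.13 for Mgl2 (negative without wild type array 3).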
